A study of Mus musculus with 4 samples.

Results

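Nanog, Sall4, Zfp42, Utf1, Lin28a and Sall1 are genes of the mouse pluripotency network. They are treated here apart from a separate group of reprogramming factors for induced pluripotent stem cells (iPSCs). These 6 genes were listed for their function, with earlier results of these data known, and are 6 of 18193 genes measured. They were read by 11 probe sets annotated to a single gene, of 45037 probe sets on the array that are not controls. Affymetrix mouse arrays, 4 in number, measured messenger RNA. One held the iPSC clone Adeno-1, derived by adenoviral delivery of the reprogramming factors into tail-tip fibroblasts. The other 3 held embryonic stem cell (ESC) lines 1, 2 and 3, derived by nuclear transfer (NT) from Adeno-1. All 4 cultures grew with LIF and fetal bovine serum on a layer of irradiated mouse embryonic fibroblasts and were preplated for 45 minutes to take these feeders away. The labels give no genotype, strain or sex, the donor is a single clone, and the NT lines are called subclones, with no statement that they were separate derivations. There was 1 array per culture.

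In ESCs, Nanog, Oct4 and Sox2 bind together at many enhancers, including their own, and so hold the undifferentiated state. Sall4 is part of the same circuit and binds the NuRD chromatin-remodelling complex, as does its relative Sall1. Zfp42 (Rex1) and Utf1 are genes activated by Oct4 and Sox2 that serve as markers of undifferentiated cells, and Lin28a encodes an RNA-binding protein that blocks the maturation of let-7 microRNAs.

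The upstream sequences of the members differ in whether they hold the letters read by Oct4 and Sox2. RefSeq (GRCm38.p6) gave a start-site window for 5 of the 6 members, all but Sall4. The 250 bases before the start site were searched on both strands for the octamer core TTTGCAT read by Oct4, the Sox core ACAATG and both joined as TTTGCATNACAATG. The joined motif contains both cores, so its matches overlap theirs. Below are the windows of Nanog and Zfp42, which hold the octamer core, and of Sall1, the member whose representative probe set spanned the most between arrays and whose most upstream window holds none of the 3. Capitals mark the octamer core or the joined motif. The Nanog window lies at chr6:122707239-122707488 on the plus strand, that of Zfp42 at chr8:43307010-43307259 on the minus strand and that of Sall1 at chr8:89044163-89044412 on the minus strand. Each is the flank before the most upstream start site in the table for that gene.
Nanog: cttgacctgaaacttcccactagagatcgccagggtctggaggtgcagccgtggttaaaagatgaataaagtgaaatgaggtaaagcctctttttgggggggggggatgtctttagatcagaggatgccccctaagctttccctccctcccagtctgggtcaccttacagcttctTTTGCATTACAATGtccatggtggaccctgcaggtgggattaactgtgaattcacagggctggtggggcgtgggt
Zfp42: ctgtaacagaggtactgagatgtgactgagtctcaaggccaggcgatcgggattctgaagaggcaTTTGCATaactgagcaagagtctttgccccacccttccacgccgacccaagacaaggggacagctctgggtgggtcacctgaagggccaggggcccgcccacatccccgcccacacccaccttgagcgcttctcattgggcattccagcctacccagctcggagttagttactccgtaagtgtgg
Sall1: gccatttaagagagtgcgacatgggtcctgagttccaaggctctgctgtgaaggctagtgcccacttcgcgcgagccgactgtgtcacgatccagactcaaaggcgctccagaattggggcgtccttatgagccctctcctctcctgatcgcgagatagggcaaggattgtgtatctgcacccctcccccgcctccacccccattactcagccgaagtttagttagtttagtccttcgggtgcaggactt

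The joined motif in Nanog spans positions -75 to -62 from the start site. Of 32851 such windows of 27025 genes, 2 held the joined motif (0.00609%), and both were the overlapping windows of the 2 annotated Nanog start sites. The octamer core occurred in 4.12% of windows and the Sox core in 10.7%. In Zfp42 the octamer core stood at -185 to -179, without a Sox core beside it. Lin28a had a Sox core, on the opposite strand at -96 to -91, and Utf1 had none of these motifs in this window. A match describes letters only, and no factor binding was measured.

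Levels are given as log2 intensities. By their form the deposited values are a log intensity divided by the mean log intensity of its array, in log2, so each was turned back into a level by an assumed array mean of 7; a different mean scales every level and difference by one factor. Because probe sets differ in affinity, a level compares arrays for a probe set, not genes with each other. The deposited 3 decimals limit a level near 12 to steps of 0.0083. The 8 marker genes listed for pluripotent cells (Pou5f1, Sox2, Nanog, Zfp42, Esrrb, Dppa5a, Fbxo15 and Utf1) were all above the median level of all probe sets, 6.83, on all 4 arrays, the lowest at percentile 95.1. Of the fibroblast and feeder genes, 17 of 19 had a mean at or above that median, which is not a detection threshold, with Lum and Pdgfrb under it. The mean of the list was 8.97 to 9.13 per array, highest in line 2. These are bulk cultures, in which fewer cells of a type and less RNA per cell cannot be told apart. Pearson's r across all genes was 0.9951 to 0.9979 between pairs of arrays, lowest for the pairs with line 3; genes are not independent replicates.

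Nanog encodes the homeodomain factor that stabilizes self-renewal. Its single probe set (1429388_at) read 12.05 in the clone, 12.28 in line 1, 12.28 in line 2 and 12.04 in line 3. Lines 1 and 2 were thus alike and higher, and line 3 stood with the clone, within 0.017 log2 of it. The mean of the lines was 12.20 ± 0.14 (SD, n = 3), a difference from the clone of 0.15 ± 0.12 (SE). That difference did not pass the test (limma, Benjamini-Hochberg adjusted p = 0.895), and its 95% interval ran from -0.16 to 0.45. Without line 3 it was 0.23 and did not pass the test either. Lines 1 and 2 had the same value, so that fit had no spread of Nanog itself to draw on. The probe set ranked at percentile 98.8 to 99.1 of its array, with 401 to 539 probe sets brighter.

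Zfp42, the zinc-finger gene long used as the Rex1 marker of ground-state cells, was nearly constant across the lines. It read 11.26 in the clone and 11.43, 11.41 and 11.39 in lines 1, 2 and 3. The 3 lines lay within 0.047 of each other and all above the clone, and Zfp42 was the sole member with that order, which 24.7% of all genes showed. The difference was 0.15 ± 0.08 (SE, 95% interval -0.041 to 0.34; limma, Benjamini-Hochberg adjusted p = 0.856). With 1 array against 3, an exact permutation test cannot give a p under 0.25.

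Utf1, a chromatin-associated factor, was read by 3 probe sets. The brightest (1416899_at) gave 12.31 in the clone, 12.15 in line 1, 12.14 in line 2 and 12.33 in line 3. This is the reverse of the order seen for Nanog: line 3 and the clone were high and lines 1 and 2 low. A second probe set (1443786_at) gave 9.94, 9.84, 9.93 and 10.04 in the same order of arrays. The third (1458333_x_at), whose suffix marks probes that may cross-hybridize, gave 7.53, 7.53, 7.49 and 7.57. All 3 put line 3 highest, by 0.026 to 0.097 over the clone. The brightest differed between lines and clone by -0.099 ± 0.11 (SE, 95% interval -0.36 to 0.16; limma, Benjamini-Hochberg adjusted p = 0.915). That difference was -0.16 without line 3, -0.063 without line 2 and -0.037 for the mean of the 3 probe sets.

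**Figure D1:**
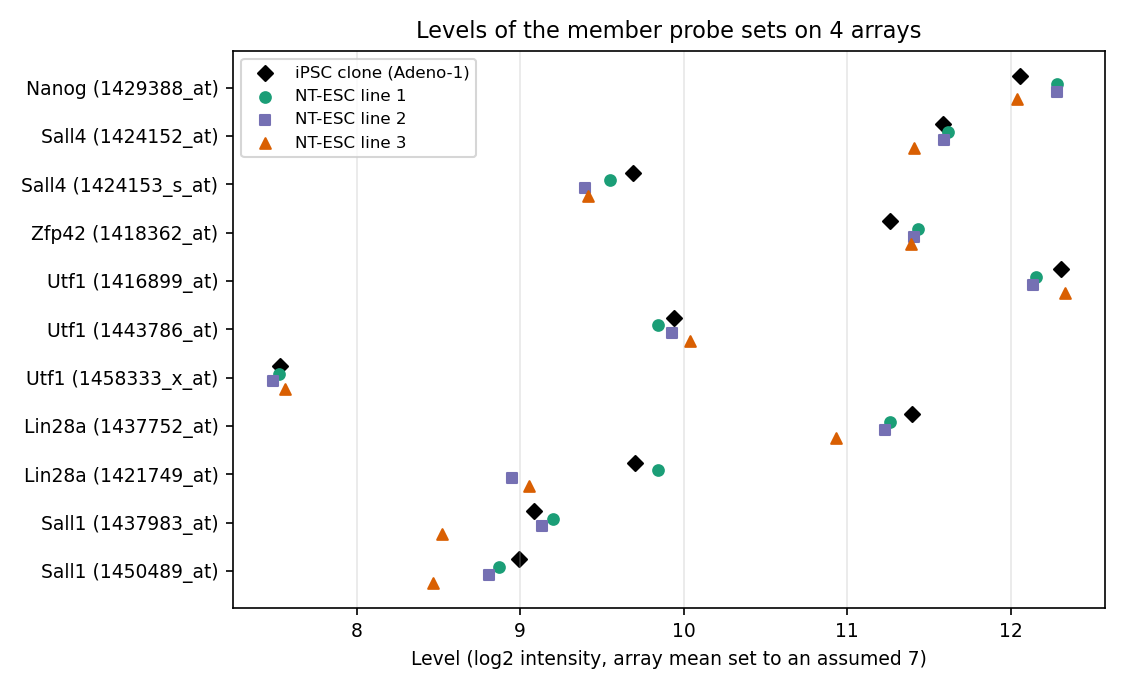
Level of each of the 11 member probe sets on the 4 arrays (x axis, log2 intensity for an assumed array mean of 7; 1 point per array, with no replicate arrays). Line 3 is the lowest array for Nanog, for 1 probe set each of Sall4 and Lin28a and for both of Sall1, and the highest for all 3 of Utf1.

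Sall4, a spalt-like zinc-finger factor needed for ESC self-renewal, was read by 2 probe sets that differed. The brighter (1424152_at) gave 11.59 in the clone, 11.62 in line 1, 11.59 in line 2 and 11.41 in line 3. Here the clone and lines 1 and 2 lay within 0.032 and line 3 was lower. The other (1424153_s_at), whose suffix marks probes shared by several transcripts, gave 9.69 in the clone and 9.55, 9.40 and 9.42 in the lines. It was lower than the clone in all 3 lines, by 0.23 ± 0.10 (SE) in the fit of all single-gene probe sets (limma, Benjamini-Hochberg adjusted p = 0.885). For the brighter probe set the difference was -0.045 ± 0.11 (SE, 95% interval -0.32 to 0.23; limma, Benjamini-Hochberg adjusted p = 0.965), and without line 3 it turned to 0.020. It was -0.084 without line 1, -0.072 without line 2, -0.073 after quantile normalization, -0.029 with median centring and -0.14 for the mean of both probe sets.

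Lin28a had the greatest gap between lines of any member probe set. Its brighter probe set (1437752_at) gave 11.40 in the clone, 11.26 in line 1, 11.23 in line 2 and 10.93 in line 3, so every line lay under the clone, an order shown by 26.7% of all genes, and line 3 was lowest. The second (1421749_at) gave 9.70 in the clone, 9.84 in line 1, 8.95 in line 2 and 9.05 in line 3. On that probe set lines 2 and 3 were 1.68-fold and 1.57-fold lower than the clone, while line 1 was 1.10-fold higher. Both probe sets put line 3 below the clone, but they disagreed on line 1 and on the size in line 2, which was 0.16 log2 on one and 0.75 on the other. The gap between the 3' and 5' control probe sets of Actb, a measure of RNA integrity and labelling, was 0.42 in line 2. On the other arrays it was 0.22 to 0.29. For Gapdh the gap was 0.029 in line 2 and -0.067 to -0.038 on the other arrays. The part of RNA integrity and labelling in the Lin28a values was not tested. The difference between the lines and the clone was -0.25 ± 0.15 (SE, 95% interval -0.62 to 0.11; limma, Benjamini-Hochberg adjusted p = 0.860) on the brighter probe set and -0.42 ± 0.34 (SE, adjusted p = 0.907) on the other. Without line 3 the first of these was -0.15.

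Sall1, a second spalt-like factor, which binds Nanog in ESCs, differed most in line 3. Its probe set 1437983_at gave 9.08 in the clone, 9.20 in line 1, 9.13 in line 2 and 8.52 in line 3. The other (1450489_at) gave 8.99, 8.87, 8.81 and 8.47. On both, line 3 stood under the remaining arrays, by at least 0.56 on the first and 0.34 on the second. Lines 1 and 2 lay above the clone on the first probe set and below it on the second, by at most 0.18. The fit of the lines against the clone had a wide interval (-0.13 ± 0.27, SE; 95% interval -0.80 to 0.54; limma, Benjamini-Hochberg adjusted p = 0.956), and without line 3 the difference turned to 0.082. It was -0.26 without line 1, -0.22 without line 2 and -0.20 for the mean of both probe sets.

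**Figure D2:**
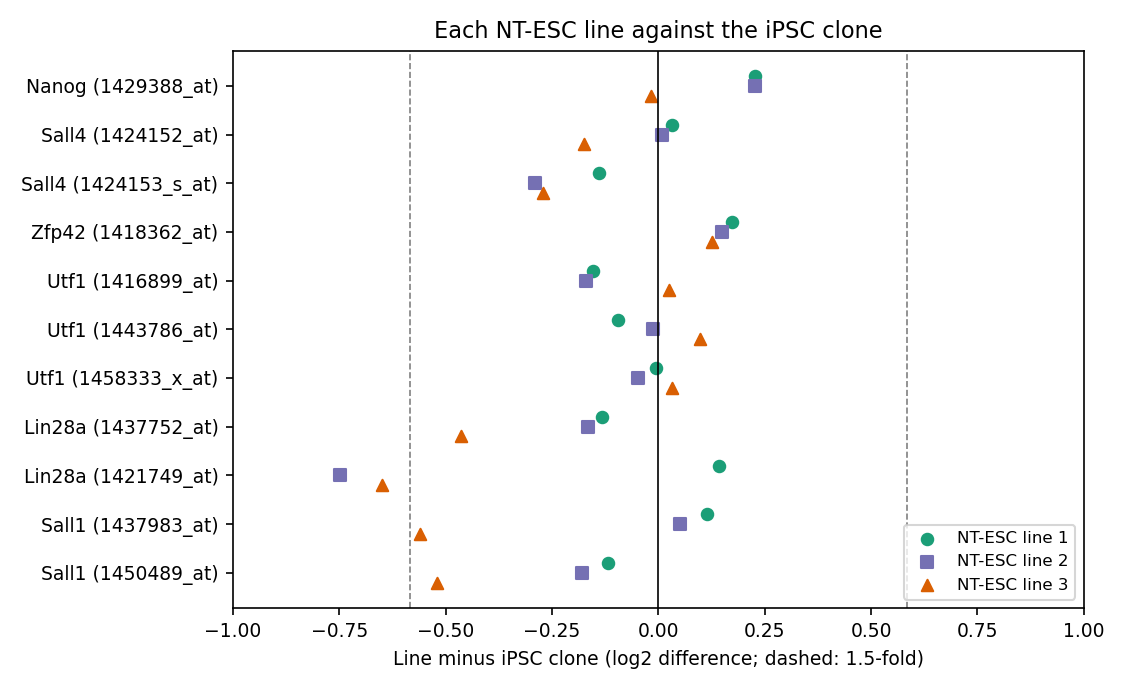
Difference of each NT-ESC line from the iPSC clone for the 11 member probe sets (x axis, log2 difference; dashed lines mark 1.5-fold). The second Lin28a probe set in lines 2 and 3 (-0.75 and -0.65) lies outside the dashed lines, and the first Sall1 probe set in line 3 (-0.56) lies just inside.

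Within each array the members ranked high among the 45037 probe sets, by the brightest probe set of each. Nanog and Utf1 stood at percentile 98.8 to 99.1, Sall4 at 97.8 to 98.2, Zfp42 at 97.5 to 97.8 and Lin28a at 96.6 to 97.8. The Sall1 probe set was the lowest of the 6, at 85.2 in the clone, 85.8 in line 1, 85.3 in line 2 and 78.7 in line 3. There were 6374 to 9584 probe sets brighter. Ranked among genes in place of probe sets, Sall1 stood lower, at 76.7 in the clone, 77.7 in line 1, 76.8 in line 2 and 67.4 in line 3. Because probe sets differ in affinity, these ranks do not order the members by expression. The rank of a gene depends on which probe set is read: the third Utf1 probe set stood at 63.3 to 64.8, and the second of Lin28a at 91.3 in line 1 and 83.5 in line 2. The median percentile of the members was 98.0 in the clone and in lines 1 and 2, and 97.7 in line 3.

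Set side by side, the 6 members gave no call for the 3 NT-ESC lines against the clone. In this comparison 0 of 18193 genes passed (percent called 0; limma, Benjamini-Hochberg adjusted p at least 0.856), and 1006 genes (5.53%) but none of the members had an unadjusted p under 0.05. The median difference of the members was -0.072, and that of all genes -0.0031. Across the 4 arrays the members' levels spanned 0.17 for Zfp42, 0.20 for Utf1, 0.21 for Sall4, 0.24 for Nanog, 0.46 for Lin28a and 0.68 for Sall1. Among the 11747 genes with a mean at or above the median level, called bright, the median span was 0.18. Zfp42 was at percentile 45.9 of these spans, Utf1 at 53.8, Sall4 at 57.7 and Nanog at 68.2, so these 4 varied about as a bright gene does, while Lin28a at 93.7 and Sall1 at 98.2 varied more than most.

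When each line was set against the clone alone, no gene-level value of a member reached 1.5-fold. There were 67 such genes in line 1 (0.368%), 23 in line 2 (0.126%) and 233 in line 3 (1.28%). The largest member difference was 0.23 in lines 1 and 2, for Nanog in both, and -0.56 in line 3, for Sall1. The medians of the 6 differences were 0.073, 0.029 and -0.096 in lines 1, 2 and 3. With 1 array on each side there is no replicate check. The Sall1 value depends on the assumed mean: it passed 1.5-fold with the mean that puts the brightest probe set at 16, where it was -0.63.

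**Figure D3:**
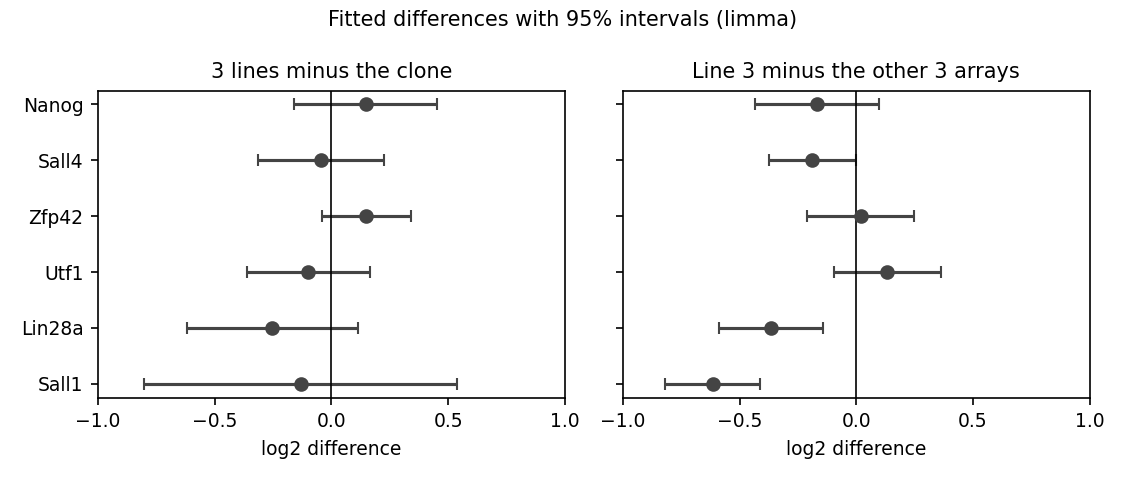
Fitted log2 differences (points) with 95% intervals (bars) of the 6 members, for the 3 NT-ESC lines minus the clone (left) and line 3 minus the other 3 arrays (right), from limma. All intervals on the left include 0, and on the right those of Sall4, Lin28a and Sall1 lie below 0.

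Line 3 was then set against the other 3 arrays, a comparison that shares all of its arrays with the one above. Line 3 was singled out because an earlier analysis of these data had found it apart. The p-values of this comparison do not allow for that choice. Line 3 was the lowest array for 4 of the 6 members, Nanog, Sall4, Lin28a and Sall1, against 28.8% of all genes, and the margin for Nanog was 0.017. It was the highest array for Utf1, as for 25.7% of all genes. The median difference of the members was -0.18, against -0.0059 for all genes. Sall1 fell, by 0.62 ± 0.09 (SE, 95% interval -0.82 to -0.41) or 1.53-fold (limma, Benjamini-Hochberg adjusted p = 0.0412). It was the sole member among 84 genes called (0.462%), of which 55 were lower (0.302%). The call rests on every array: without the clone, line 1 or line 2 the adjusted p of Sall1 was 0.348, 0.573 or 0.597 (limma, 1 residual degree of freedom), with a difference of -0.64, -0.59 or -0.62, and 0 genes were then called. In the fit of all single-gene probe sets its adjusted p was 0.0717, and that of its second probe set 0.185 at -0.42 ± 0.10 (SE), or 1.34-fold (limma, Benjamini-Hochberg). On the deposited scale the adjusted p was 0.202 (limma, Benjamini-Hochberg).

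The remaining members did not pass in line 3. Lin28a differed by -0.36 ± 0.09 (SE; limma, Benjamini-Hochberg adjusted p = 0.174), or 1.29-fold, and by -0.45 ± 0.31 on its second probe set, where line 2 was as low as line 3. Sall4 differed by -0.19 ± 0.08 (SE; limma, adjusted p = 0.422), Nanog by -0.17 ± 0.11 (limma, adjusted p = 0.678) and Utf1 by 0.13 ± 0.10 (limma, adjusted p = 0.719). With Sall1, Lin28a and Sall4 were the members with an unadjusted p under 0.05, 3 of 6, where 11.6% of all genes had one. That count depended on the processing and on the arrays used. It was higher without the clone and lower with the mean of probe sets. It was also lower on the deposited scale, with median centring, over all single-gene probe sets, without line 1 and without line 2. In line 3 the probe sets of each of the 4 members with several (Sall4, Utf1, Lin28a, Sall1) lay on the same side of the clone; this held for 1 of them in line 1 and 2 in line 2. Among all 9010 genes with at least 2 probe sets the shares were 42.6%, 38.3% and 47.9% in lines 1, 2 and 3. For lines 1 and 2 against the other arrays no gene was called (limma; 504 genes, or 2.77%, and 423, or 2.33%, at an unadjusted p under 0.05, none of them a member), and the differences of the members ran from -0.10 for Utf1 to 0.28 for Sall1 in line 1 and from -0.13 to 0.20 for the same genes in line 2. Without line 3 the Sall1 differences were 0.089 in line 1 and -0.0065 in line 2.

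Chromosome 8, which carries both Zfp42 and Sall1, had generally raised levels in line 3. The 636 bright genes of that chromosome had a median difference of 0.27 between line 3 and the other arrays, and 82.1% were highest there, against a median of -0.016 and 23.5% for 11111 bright genes of other chromosomes. Zfp42 differed by 0.018 ± 0.10 (SE; limma, Benjamini-Hochberg adjusted p = 0.977), and 60 of the 636 genes (9.43%) lay lower. Sall1 at -0.62 lay under all of them but Acta1, which differed by -0.68. Neither member thus shared the higher median of its chromosome in line 3, Zfp42 standing near the median of the other chromosomes and Sall1 far below both. The sign for Zfp42 is not settled, since it was -0.0031 after quantile normalization and -0.036 without the clone.

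**Figure D4:**
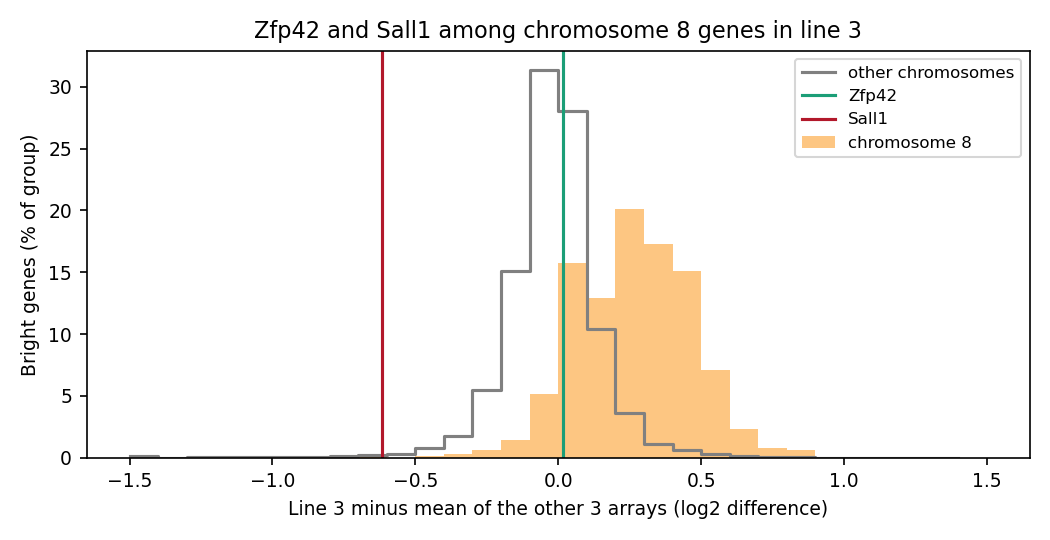
Difference of line 3 from the mean of the other 3 arrays (x axis, log2) for bright genes of chromosome 8 (bars) and of other chromosomes (grey line), as a share of each group (y axis, percent; values beyond the axis are counted in the outermost bins). Vertical lines mark Zfp42 at 0.018 and Sall1 at -0.62, while the median of the chromosome 8 genes is 0.27.

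The genes with the most similar pattern were found as those with the smallest root mean square difference over the 4 arrays, after each gene was centred on its own mean. For Sall1 these were Dennd4a and Jun (0.014 each), and 8 of 11746 bright genes came within 0.05. Jun, a subunit of the AP-1 transcription factor, read 9.07 in the clone, 9.17 in line 1, 9.08 in line 2 and 8.49 in line 3. For Lin28a the nearest were Spata13 (0.010) and Med14 (0.017), with 46 genes within 0.05. The flatter members had many near neighbours: 321 genes for Nanog, led by Zfc3h1 and Scarb2, 450 for Utf1, led by Srd5a3 and Steap2, 1010 for Sall4, led by Rnf24 and Zfp507, and 1315 for Zfp42, led by Skiv2l and Lonp1. With 4 arrays such likeness is a description of these cultures.

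Other parts of the network were described through lists chosen for their function, and none of their genes passed in any of the contrasts. Of 16 measured core transcription factors, 8 were above the clone in all 3 lines and 1 below, with a median difference of 0.064. Tfcp2l1, a naive-state factor downstream of LIF, differed by 0.65 ± 0.09 and Tbx3 by 0.48 ± 0.10, and Nr0b1, an orphan nuclear receptor, by -0.26 ± 0.22 and Tcf7l1, the Wnt-pathway repressor, by -0.11 ± 0.16 (SE). In line 3, Nr0b1 was -0.55 ± 0.09 against the other arrays (limma, Benjamini-Hochberg adjusted p = 0.0614). Of 19 ESC marker genes, 4 were above and 6 below the clone in all lines, with a median of -0.040, from -0.42 for Tex19.1 and -0.28 for Foxd3 to 0.16 for Upp1 and 0.18 for Zfp57. In line 3 the median of this list was -0.11. Over all genes 24.7% were above and 26.7% below.

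The partners of single members gave small differences. Of 13 genes of the Sall family and the NuRD complex, 2 were above and 3 below the clone in all lines (median -0.014). Gatad2b and Chd4, NuRD subunits, differed by 0.23 ± 0.15 and 0.14 ± 0.08 (SE). The paralog Sall2 read 6.27 in the clone and 5.87 to 6.17 in the lines, below the median level of all probe sets, 6.83. Sall3 read 6.96 and 6.86 to 6.90, close to that median. Neither was higher in line 3 than in the clone, but both levels are low. Of 15 genes of the Lin28 and let-7 axis, 5 were above and 5 below (median -0.029). The terminal uridylyl transferase gene Tut7, whose enzyme acts on let-7 precursors, differed by 0.16 ± 0.08, Dicer1 by 0.12 ± 0.08, E2f6 by -0.10 ± 0.08 and the cyclin gene Ccnd1 by -0.21 ± 0.20 (SE). Lin28b, the paralog of Lin28a, read 4.10 in the clone and 4.14 to 4.27 in the lines, below the median level of all probe sets. Around Zfp42, none of 4 genes lay on the same side of the clone in all lines (median -0.048). Rlim, the ubiquitin ligase that degrades the Rex1 protein, differed by -0.077 ± 0.11, Yy1 by 0.00016 ± 0.09, Xist by -0.019 ± 0.08 and Tsix by -0.12 ± 0.19 (SE). Tsix, too, read below the median level of all probe sets.

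Genes of cells outside the undifferentiated state were counted as above or below the clone in all 3 lines. The counts were 7 and 3 of 19 fibroblast and feeder genes (median 0.054), 0 and 6 of 10 primed epiblast genes (-0.24), 2 and 3 of 11 primitive endoderm genes (0.037), 4 and 2 of 10 trophectoderm genes (0.0020), and 2 and 3 of 7 neural ectoderm genes (-0.11). The extremes of each list, none of which passed the test (limma), were as follows. Among fibroblast genes the collagen genes Col3a1 and Col1a1 differed by 0.20 ± 0.17 and 0.16 ± 0.12, S100a4 by -0.20 ± 0.15 and Prrx1 by -0.10 ± 0.08 (SE). Among primed epiblast genes Lef1 differed by -0.53 ± 0.24, Sox3 by -0.41 ± 0.11, Krt18 by 0.52 ± 0.50 and Cer1 by 0.0090 ± 0.08 (SE). Among trophectoderm genes the keratin gene Krt8 differed by 0.73 ± 0.45, Tfap2c by 0.56 ± 0.14, Cdx2 by -0.31 ± 0.09 and Gata3 by -0.13 ± 0.08 (SE). Krt8 read 8.39 in the clone and 8.41 in line 3, against 9.62 and 9.35 in lines 1 and 2, and Krt18 had the same split. Among primitive endoderm genes Dab2 and Ttr differed by 0.18 ± 0.14 and 0.13 ± 0.11, Afp by -0.27 ± 0.11 and Hnf4a by -0.24 ± 0.09 (SE). Among neural genes Tubb3 and Neurod1 differed by 0.19 ± 0.19 and 0.14 ± 0.09, Zic1 by -0.33 ± 0.10 and Pax6 by -0.18 ± 0.26 (SE). Cer1, Cdx2, Gata3, Afp and Zic1 had means under the median level of all probe sets. In line 3 against the other arrays the primed epiblast median was -0.20, with genes from -0.91 to 0.63. The fibroblast and feeder median was -0.051, with genes from -0.69 to 0.22. The part of these genes in the Sall1 and Lin28a values was not tested.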

How the data were processed

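Total RNA was labelled as biotinylated cRNA and hybridized to Affymetrix arrays, per the labels' protocols. How the authors normalized and summarized the probes is not given in the sources used here. On each array the deposited log2 values have a mean of 1 after 2 is raised to them, with ratios from 0.422 to 2.03; each ratio was multiplied by an assumed mean log2 intensity of 7. The plan had assumed log2 intensities. A mean of 6 makes differences 14.3% smaller, and 7.86, which puts the brightest probe set at 16, makes them 12.3% greater; the p-values are the same for any mean.

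Of 45101 probe sets, 64 were controls, 34945 had 1 gene, 932 several and 9160 none, by the platform annotation; 34741 gene IDs matched RefSeq (GRCm38.p6), used for symbols and chromosomes. The probe set with the highest mean stood for its gene. Contrasts were fitted over 18193 genes by lmFit and eBayes of limma 3.58.1 under R version 4.3.3. Tests were two-sided, with a threshold of 0.05 on the Benjamini-Hochberg adjusted p. In simulated data of 1 array against 3, the fit recovered 1% of changes of 0.5 log2, 59% of 1 and 82.5% of 2. Nearly all changes of 0.5 log2 were thus missed, as were some of 1 and 2 log2. A gene without a call can therefore still differ by such amounts. The lone array was assumed to vary like the other 3, whose independence as derivations is not stated, so SEs and p-values measure only the spread between these arrays; their number limits the precision. The members and lists were chosen with earlier results of these data known. The genes named are the members, the 2 highest and 2 lowest differences of each of 10 lists, paralogs and, for each member, the 2 genes nearest in pattern, beside the 8 pluripotent markers. Lum, Pdgfrb and Acta1 were chosen after their values were seen.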

Additional observations from a re-analysis of the deposited data

How the results depend on the processing

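The other assumed array means rescale every value by one factor, so they could change neither a direction nor a call. The fits over all single-gene probe sets, over bright genes only and with an intensity trend could not change a direction. They reuse the same member values, as does the mean of probe sets for Nanog and Zfp42. Of 144 recomputed differences of the members, with these included, 135 kept their direction and their side of the threshold, 5 lost the call of Sall1 in line 3 (the deposited scale, all single-gene probe sets and each of 3 left-out arrays) and 4 changed sign. The adjusted p of that call ranged from 0.0285 to 0.597 over its alternatives (limma, Benjamini-Hochberg). Those that changed sign were small: Zfp42 in line 3 was -0.0031 after quantile normalization, and leaving out 1 array gave -0.036 to 0.051 for Zfp42 in line 3, -0.084 to 0.020 for Sall4 and -0.26 to 0.082 for Sall1 in the lines against the clone. Genes called in line 3, 84 in the report, numbered 15 on the deposited scale, 131 after quantile normalization, 168 with the mean of probe sets, 55 over all single-gene probe sets and 153 with an intensity trend, and 0 to 0 when 1 array was left out. The count of called genes in the other contrasts was 0 under all alternatives run. Members at least 1.5-fold from the clone in line 3, 0 in the report, numbered 1 with the brightest probe set at 16 and 1 after quantile normalization, Sall1 in both. Ranked among genes in place of probe sets, the median percentile of the members was 97.5 in the clone, 97.5 in line 1, 97.5 in line 2 and 97.1 in line 3. No paired analysis was possible because there was 1 clone array and all 3 lines came from that clone. Without line 3 itself its contrast could not be run.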
